A study of Mus musculus with 6 samples.

Results

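Parp9, Dtx3l, Parp10, Parp11, Parp12 and Parp14, 6 genes that interferon is known to induce, were followed in RNA sequencing of mouse forebrain. They were taken by symbol from the 35275 gene identifiers of the deposited tables, and all 6 passed the filter on low counts that left 16938 genes for testing. The conditional knockout (cKO) group held 3 C57BL/6 mice of genotype Pdgfra-CreER:Parp1fl/fl, in which a tamoxifen-inducible recombinase under Pdgfra control deletes Parp1 in oligodendrocyte precursors and other Pdgfra-expressing cells. The control group held 3 Parp1fl/fl littermates without the recombinase, so both groups carried the floxed Parp1 allele. Every mouse was given tamoxifen by intraperitoneal injection on postnatal days 1 to 3 and was 9 days old at harvest. The study asked how loss of Parp1 in this lineage bears on oligodendrocyte differentiation. RNA came from whole forebrain, so fewer cells of a type and less RNA per cell cannot be told apart.

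Poly(ADP-ribose) polymerases (PARPs) move ADP-ribose from NAD onto proteins. Parp1, the deleted gene, makes long chains at DNA breaks, whereas most of the interferon-inducible members add lone ADP-ribose units or, in the case of PARP9, are known mainly through a partner protein. Interferons act through receptors and Janus kinases on transcription factors, among them STAT2, which with IRF9 acts at the interferon-stimulated response element (ISRE) of target genes, while interferon gamma acts through the gamma-activated site (GAS). In the brain, microglia, endothelium and astrocytes can all mount this response. The 6 genes were selected on their gene family with the cKO and control counts and FPKM of these same libraries already known, so the measured values of this contrast had a part in the choice and their differences between the groups are given as a description.

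Parp14, Dtx3l and Parp9 lie side by side on mouse chromosome 16 (mm10). Parp14 (ENSMUSG00000034422) spans 35832874 to 35871544 on the minus strand. Dtx3l (ENSMUSG00000049502) follows after 54966 bp, from 35926511 to 35939151 on the minus strand. Parp9 (ENSMUSG00000022906) runs the other way, from 35938470 to 35972605 on the plus strand, so that the 5′ ends of Dtx3l and Parp9 face each other and the gene spans overlap by 682 bp. Exons of Dtx3l and Parp9 overlap by 458 bp on opposite strands. The strand setting of the counting is not given in the sources used here, so reads in that stretch may not be told apart. Parp10 (ENSMUSG00000063268) lies on chromosome 15 from 76231174 to 76243441 and shares 205 bp of exon with Plec on the same strand, which leaves its count less certain. Parp11 (ENSMUSG00000037997, 127446840 to 127494261) and Parp12 (ENSMUSG00000038507, 39086410 to 39118349) lie far apart on chromosome 6. Of the genes, Parp14 also shares 110 bp of exon with Gm49730, a transcript still to be experimentally verified that has no row in the deposited tables.

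Promoter windows of RefSeq (build GRCm38.p6, 250 bases before to 50 after a gene's start) were found for 3 of the 6 genes, Parp11, Parp12 and Dtx3l, in 4 windows. Their letters were searched on both strands for an ISRE, written as GAAA, 2 bases of any kind and GAAA again, and for a GAS, TTCNNNGAA, which reads the same on both strands. Both were found in 1 window, the first of Parp11, where the ISRE letters read TTTCGATTTC, that is, on the opposite strand, at chr6:127446796-127446805, and the GAS letters TTCTTGGAA overlap them by 3 bases at chr6:127446803-127446811. The stretches below show the bases before the start that lie outside annotated exons. They set the stretch of the first Parp11 window, with the joined ISRE and GAS in capitals, beside those of Parp12 and Dtx3l, whose windows hold neither. The second window of Parp11 also holds neither and is not printed.
Parp11, plus strand, chr6:127446590-127446839: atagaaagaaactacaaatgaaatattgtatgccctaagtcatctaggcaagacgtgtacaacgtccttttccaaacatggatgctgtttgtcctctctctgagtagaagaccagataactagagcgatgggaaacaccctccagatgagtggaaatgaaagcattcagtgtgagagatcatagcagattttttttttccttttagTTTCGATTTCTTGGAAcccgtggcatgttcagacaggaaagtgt
Parp12, minus strand, chr6:39118350-39118472: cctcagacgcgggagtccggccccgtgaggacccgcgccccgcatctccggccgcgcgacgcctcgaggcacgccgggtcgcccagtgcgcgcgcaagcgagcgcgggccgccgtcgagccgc
Dtx3l, minus strand, chr16:35939207-35939277: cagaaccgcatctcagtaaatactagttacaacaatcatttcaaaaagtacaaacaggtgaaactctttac
The ISRE letters occurred in 3.44% of all 32851 promoter windows and the GAS letters in 8.30%. Counted by gene, with a match in at least 1 window, the shares were 3.99% and 9.55% of 27025 genes. Among 35 other interferon-stimulated genes, 30 had a window, and 15 of these held the ISRE letters and 7 the GAS letters. A match is a run of letters and not a bound site, and a window without one says nothing of sites elsewhere. The Dtx3l window lies inside Parp9, so the stretch printed for it is intronic to Parp9.

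Total counts ran from 17262042 to 29310193 per library, and each of the 6 genes had between 63 and 1199 counts in a library. Forebrain striatal markers summed to 478 to 565 CPM (counts scaled to TMM-adjusted library size) in cKO and 112 to 626 CPM in controls. Hindbrain genes summed to at most 0.345 CPM in cKO and 0 to 1.64 CPM in controls, highest in control replicate 3. Control replicate 3 stood apart, with Ppp1r1b, a striatal phosphoprotein, at 39.6 CPM against 221 to 303 CPM in the other libraries. Thalamus markers summed to 434 CPM there, against 149 and 173 CPM in the other controls and 147 to 177 CPM in cKO. By these markers its mix of regions differed from that of the other libraries. The part of this in the differences between groups was not tested. Y-linked Ddx3y had 1123 reads in control replicate 1 and 0 or 1 in each other library. X-linked Xist had 3 reads in control replicate 1 and 20196 to 27661 in the others. By these transcripts control replicate 1 was male and the other mice were female. Sex was thus not balanced between the groups, and its part in their differences was not tested. Parp1 itself had 80.8, 79.7 and 79.1 CPM in cKO replicates 1, 2 and 3, against 90.8, 97.3 and 85.6 CPM in the controls, and the difference of -0.19 on the log2 scale did not pass edgeR (adjusted p = 0.572). The whole-forebrain count does not measure deletion within the targeted cells.

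In levels per length, Parp11 stood far above the rest in both groups, and the order of the others differed between groups. In FPKM (reads scaled by gene length and library total), Parp11 averaged 11.2 ± 0.24 in cKO and 11.6 ± 0.917 in controls (SD, n = 3 mice each, as for all means here). Parp12 came next, at 3.75 ± 0.48 FPKM in cKO and 2.89 ± 0.0985 FPKM in controls. In cKO forebrains Parp9 (1.64 ± 0.377 FPKM) followed, with a range that overlapped that of Parp10 (1.31 ± 0.0414 FPKM). Dtx3l (0.952 ± 0.239 FPKM) and Parp14 (0.933 ± 0.262 FPKM) were lowest there, and their ranges overlapped too. In controls the order was Parp10 (1.27 ± 0.0905 FPKM), Parp9 (1.1 ± 0.103 FPKM), Dtx3l (0.669 ± 0.094 FPKM) and Parp14 (0.488 ± 0.0959 FPKM), and no neighbouring ranges overlapped. Of the summed FPKM of the 6 genes, Parp11 held 53.3% to 59.3% in cKO libraries and 62.3% to 67.0% in control libraries. Parp14 held 3.45% to 5.31% of that sum in cKO libraries and 2.08% to 3.26% in control libraries. The deposited FPKM rest on 1 length per gene, 3726 bp for Parp11 and 3231 bp for Parp12. Their merged annotated exons span 7026 and 3995 bp, so levels, shares and ratios between genes depend on the length taken.

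**Figure D1:**
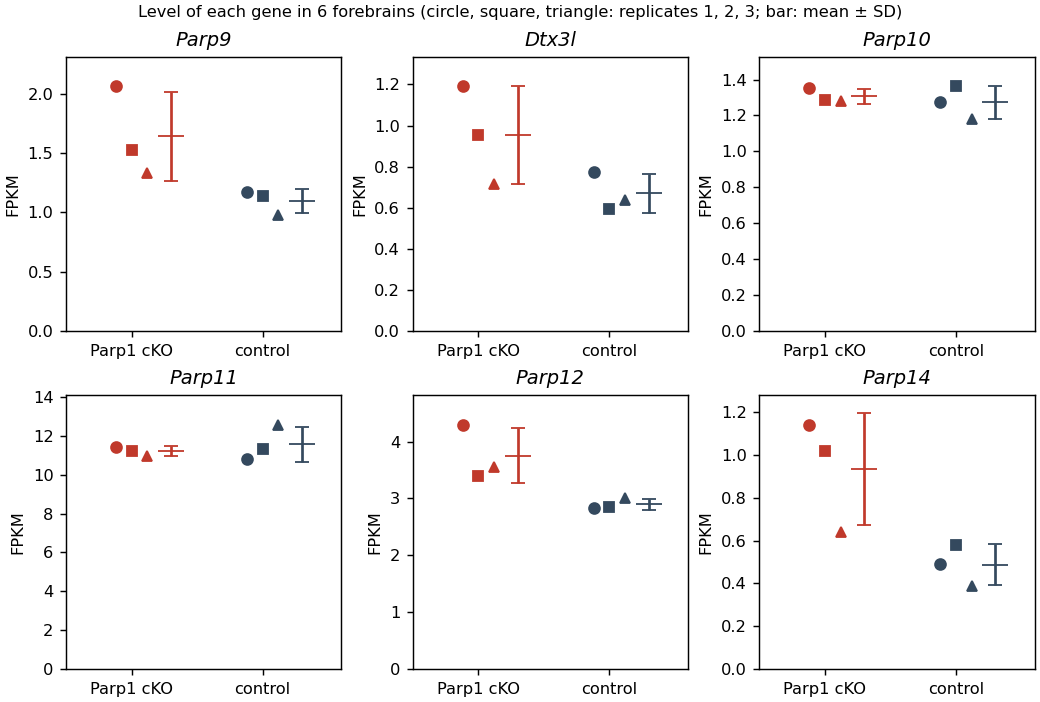
FPKM of each of the 6 genes in 3 Parp1 cKO and 3 control forebrains, with points for single mice and a bar for the mean ± SD; each vertical axis starts at 0. The 3 cKO points lie above the 3 control points for Parp9, Parp12 and Parp14, overlap them for Dtx3l by 1 library, and lie among them for Parp10 and Parp11.

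Parp9 encodes a macrodomain protein with no or very weak transferase activity of its own, which works bound to the ubiquitin ligase DTX3L. It had 7.20, 5.45 and 4.83 CPM in cKO replicates 1, 2 and 3, against 4.16, 4.0 and 3.51 CPM in control replicates 1, 2 and 3. All 3 cKO values lay above all 3 control values, with cKO replicate 1 the highest. In edgeR this came to 1.49-fold, or 0.58 on the log2 scale (95% interval 0.16 to 0.99). Dtx3l, which encodes that ligase, had 6.22, 5.09 and 3.86 CPM in the cKO libraries and 4.10, 3.13 and 3.42 CPM in the controls. Here the groups overlapped, since cKO replicate 3 lay below control replicate 1. The log2 fold change of Dtx3l was 0.51 (95% confidence interval 0.05 to 0.96).

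The levels of Dtx3l and Parp9 were also compared within each library. The ratio of Dtx3l to Parp9 in FPKM was 0.577, 0.624 and 0.534 in cKO replicates 1, 2 and 3, against 0.659, 0.522 and 0.651 in the controls. The ranges of this ratio overlapped between the groups. The ratio of Parp14 to Parp9 was 0.554, 0.666 and 0.478 in cKO and 0.419, 0.511 and 0.398 in controls, and these ranges overlapped as well.

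Parp14 encodes a large macrodomain-bearing transferase that was first described in the mouse as a cofactor of STAT6. It showed the widest difference of the 6 genes, with 8.34, 7.59 and 4.83 CPM in cKO replicates 1, 2 and 3, against 3.64, 4.28 and 2.92 CPM in the controls. The groups did not overlap, and cKO replicate 3 came closest to the controls. In edgeR this came to 1.90-fold, or 0.93 on the log2 scale (95% interval 0.44 to 1.42). The raw counts behind it were 169, 188 and 139 in cKO and 63, 93 and 64 in controls.

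Parp12 encodes a transferase with CCCH zinc fingers and is known for antiviral activity in cultured cells. It had 13.7, 11.1 and 11.7 CPM in cKO replicates 1, 2 and 3, against 9.12, 9.11 and 9.81 CPM in the controls. The groups did not overlap, and the log2 fold change was 0.37 (95% confidence interval 0.11 to 0.64), or 1.30-fold. Relative to Parp11, Parp12 was at 0.375, 0.303 and 0.324 of its FPKM in cKO libraries and at 0.262, 0.251 and 0.239 in control libraries, without overlap.

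Parp10 and Parp11 did not share this pattern. Parp10, a transferase known for modifying proteins with lone ADP-ribose units, had 4.54, 4.40 and 4.45 CPM in cKO replicates 1, 2 and 3, against 4.33, 4.6 and 4.06 CPM in the controls. On the log2 scale it differed by 0.04 (95% interval -0.31 to 0.40), so a change of the size of that of Parp12 lies within it. Parp11, which in human cells has been tied to loss of the type I interferon receptor, had 42.0, 42.1 and 41.7 CPM in cKO and 40.2, 41.8 and 47.4 CPM in controls. Its log2 fold change was -0.04 (95% confidence interval -0.21 to 0.13), and the 3 cKO values lay within the range of the controls. Without control replicate 3, the library with low striatal signal, Parp10 was at -0.01 and Parp11 at 0.03.

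With p-values of edgeR's quasi-likelihood fit adjusted over all tested genes (Benjamini-Hochberg), 0 of the 6 genes were called at an adjusted p under 0.05, where 0.266% of all tested genes were. Before adjustment 4 of the 6 had a p under 0.05, all higher in cKO, against 3.52% of all tested genes. Groups that did not overlap, with cKO above control, were seen in 3 of the 6 genes and in 6.08% of all tested genes. The median log2 fold change was 0.44 over the 6 genes and -0.00 over all tested genes. Because the genes were chosen with this contrast known, nothing is read from these shares. Parp14 was called by DESeq2, where 0.606% of genes were called, and by edgeR with no filter on low counts, where 0.429% were, and limma-voom, which called 0.177% of all genes, called 0 of the 6. Without cKO replicate 1 the log2 fold changes of Parp9, Dtx3l, Parp12 and Parp14 were 0.40, 0.34, 0.29 and 0.78.

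The other PARPs held 1 gene with a difference close to that of Parp14. This was Zc3hav1, which encodes the zinc-finger antiviral protein PARP13, an interferon-inducible member without transferase activity. It had 6.02, 6.82 and 5.11 CPM in cKO replicates 1, 2 and 3, against 3.75, 2.62 and 3.19 CPM in the controls. Its groups did not overlap, with cKO above control by 0.91 on the log2 scale (95% interval 0.49 to 1.33; edgeR adjusted p = 0.12). Of 11 other PARPs tested, 0 were called by edgeR, 1 was higher and 1 lower at an unadjusted p under 0.05, where 6.27% of all tested genes had such a p in either direction, and their median log2 fold change was 0.04. The lower one was Parp1. The tankyrase gene Tnks was at -0.21 (adjusted p = 0.839), at -0.06 without control replicate 3 and at -0.33 without control replicate 1. DESeq2 and unfiltered edgeR each called Zc3hav1 alone of this list, and limma-voom called 0.

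Erasers of ADP-ribose and relatives of Dtx3l held no gene that edgeR called. Of 8 eraser genes 0 were called by edgeR or limma-voom and 1, Enpp1, had an unadjusted p under 0.05. Enpp1, an ectonucleotide pyrophosphatase, had 9.87, 10.3 and 6.40 CPM in cKO libraries, against 4.10, 3.63 and 5.16 CPM in controls, a difference of 1.04 on the log2 scale (edgeR adjusted p = 0.0903). It was called by DESeq2 and by unfiltered edgeR, and by edgeR without cKO replicate 3 (adjusted p = 0.0191) or without control replicate 3 (adjusted p = 0.0214). Parg, which breaks down poly(ADP-ribose) chains, had a log2 fold change of -0.13, and Adprh, which frees ADP-ribose from arginine, had one of -0.06 (edgeR adjusted p of 0.835 and 0.941). The 4 other Deltex genes tested had 0 calls by edgeR, DESeq2 or limma-voom and 0 at an unadjusted p under 0.05, with Dtx3 at 0.13, Dtx2 at 0.08 and Dtx4 at -0.04 on the log2 scale.

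**Figure D2:**
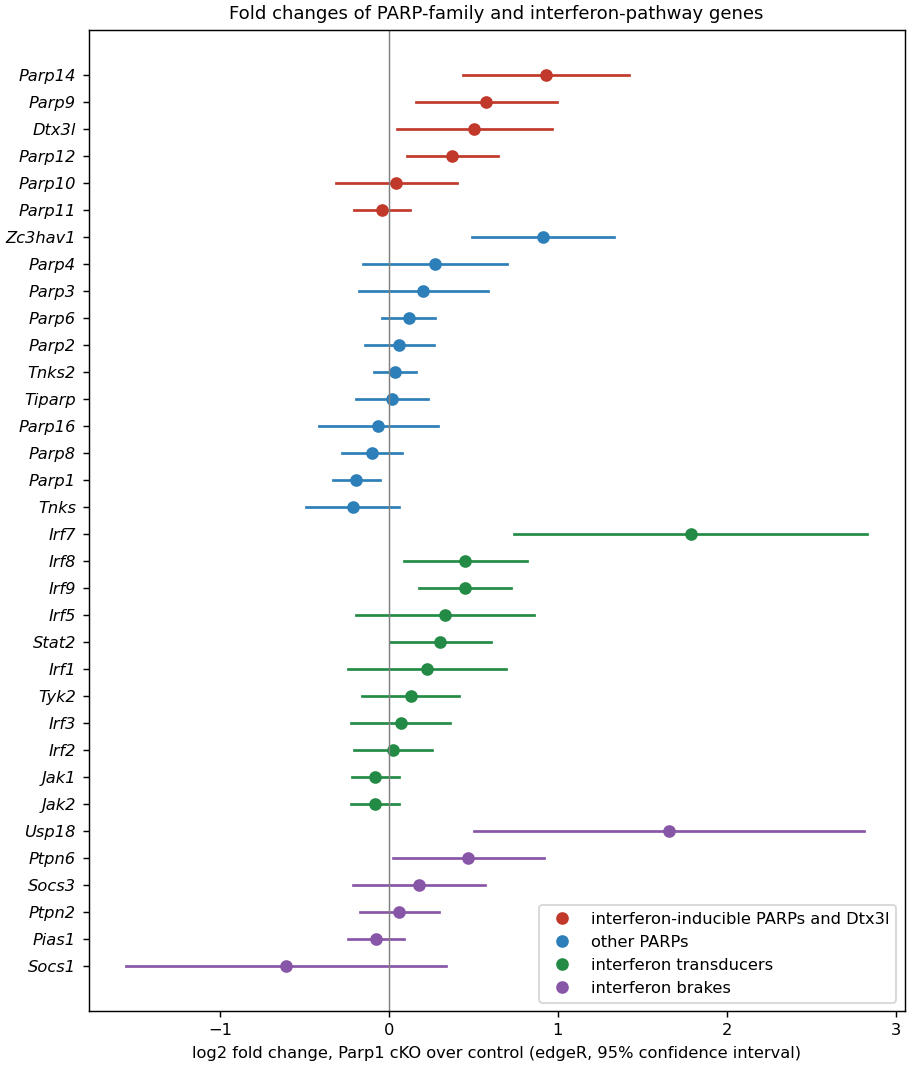
Log2 fold changes, Parp1 cKO over control, from edgeR with 95% confidence intervals for the 6 genes, 11 other PARPs, 11 of 12 interferon transducers and 6 brakes on interferon signalling. The intervals of Parp14, Parp9, Dtx3l and Parp12 lie above 0, as do those of Zc3hav1, Irf7, Irf8, Irf9, Stat2, Usp18 and Ptpn6, and those of Parp10 and Parp11 span 0.

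Upstream in the pathway, the listed interferon transcripts were at the limit of detection and no receptor tested was called. The 9 ligand genes looked at had 10 counts in all over the 6 libraries. Of these ligands 5, Ifnb1 among them, had 0 counts in every library, which at these depths allows a level of up to 0.102 to 0.174 CPM per library (3 counts, counting error only). Ifng, interferon gamma, had at most 3 counts in a library. Of 5 receptor genes tested, 0 were called by edgeR, DESeq2 or limma-voom and 0 had an unadjusted p under 0.05. Ifnar1, a chain of the type I receptor, had a log2 fold change of 0.05, Ifngr1, a chain of the interferon gamma receptor, 0.14, and Il10rb, shared with the interferon lambda receptor, 0.30 (edgeR adjusted p of 0.941, 0.891 and 0.846). Without control replicate 3 Ifngr1 was at 0.06 and Il10rb at 0.16, without cKO replicate 1 Il10rb was at 0.12, and without control replicate 1 Ifngr1 was at 0.29.

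Among the factors that carry the signal to the genes, several had higher levels in cKO, with cKO replicate 1 the highest library for those given here. Of 12 transducers tested, 0 were called by edgeR or limma-voom, 4 were higher and 0 lower at an unadjusted p under 0.05, where 3.52% of all tested genes were higher, and the median log2 fold change was 0.27. Irf9, the DNA-binding partner of STAT2, had 30.2, 22.0 and 21.9 CPM in cKO replicates 1, 2 and 3, against 17.3, 18.6 and 18.2 CPM in the controls (log2 fold change 0.45, edgeR adjusted p = 0.338). Irf7, which amplifies type I interferon production, had 5.77, 1.94 and 2.05 CPM in cKO and 1.04, 1.01 and 0.73 CPM in controls (1.79, adjusted p = 0.339). Neither gene's groups overlapped. Without cKO replicate 1 the log2 fold change was 1.11 for Irf7 and 0.28 for Irf9. Irf8, a factor of microglia, was at 0.45 (adjusted p = 0.668), and at 0.27 without control replicate 3. DESeq2 called Irf7, and unfiltered edgeR called Irf9.

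Stat2, named here after its values were seen because its product works with IRF9, had 45.5, 34.4 and 33.5 CPM in cKO replicates 1, 2 and 3, against 27.5, 35.1 and 29 CPM in the controls (log2 fold change 0.30, edgeR adjusted p = 0.783). The groups overlapped, and its highest library was likewise cKO replicate 1.

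Among brakes on the pathway, 0 of 6 were called by edgeR, DESeq2 or limma-voom, and 2 were higher at an unadjusted p under 0.05. Usp18, which removes ISG15 from proteins and dampens the type I receptor, had 4.24, 1.90 and 1.01 CPM in cKO replicates 1, 2 and 3, against 0.577, 0.736 and 0.867 CPM in the controls (log2 fold change 1.66, edgeR adjusted p = 0.552). Without cKO replicate 1 that difference was 0.97. The phosphatase gene Ptpn6 was at 0.47 (adjusted p = 0.768), and at 0.28 without control replicate 3. Socs1, a suppressor of Janus kinases that interferon also induces, pointed the other way at -0.61 (adjusted p = 0.862), with overlapping groups. Single libraries moved Socs1, to -0.20 without control replicate 3, -0.27 without cKO replicate 2 and -0.97 without cKO replicate 1.

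The 35 other interferon-stimulated genes held 33 that were tested, and all 33 had a positive log2 fold change, where 49.8% of all tested genes did. Their groups did not overlap, with cKO above control, in 28 of the 33, against 6.08% of all tested genes. None passed adjustment in edgeR (0 called), and 28 were higher at an unadjusted p under 0.05, where 3.52% of all tested genes were. DESeq2 called 12 and limma-voom 0, where these tools called 0.606% and 0.177% of all genes. The list was chosen with earlier results of these data known, so nothing is read from these shares. The log2 fold changes of the 33 ran from 0.08 to 2.55 with a median of 0.92. Parp14 thus lay beside the list's median, and Parp9, Dtx3l and Parp12 below it. Rsad2, the antiviral enzyme viperin, had 3.06, 1.74 and 1.84 CPM in cKO and 0.808, 0.552 and 0.776 CPM in controls (1.62, edgeR adjusted p = 0.102). Ifi44 was at 1.69 and Gbp3, a guanylate-binding protein, at 1.42 (adjusted p of 0.116 and 0.118). Gbp genes have close copies that may share reads.

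The interferon-stimulated list and the 4 genes that lay higher were set side by side in each library. These 4 were taken for lying higher in cKO, so the direction they share with the list follows from that choice. The mean of the list, as log2 CPM relative to the mean of 6 libraries, was 1.01, 0.36 and 0.18 in cKO replicates 1, 2 and 3, against -0.60, -0.46 and -0.48 in the controls. On the same scale Parp9 was at 0.60, 0.20 and 0.03 in cKO and at -0.18, -0.23 and -0.42 in controls. Dtx3l stood at 0.56, 0.28 and -0.11 in cKO, against -0.03, -0.41 and -0.28 in controls. Parp14 was at 0.75, 0.62 and -0.02 in cKO and -0.42, -0.19 and -0.73 in controls. Parp12 stood at 0.36, 0.06 and 0.14 in cKO, against -0.22, -0.22 and -0.12 in controls. Parp10, not among the 4, was at 0.05, 0.00 and 0.02 in cKO and -0.02, 0.07 and -0.11 in controls. Parp11, also not among them, was at -0.02, -0.01 and -0.03 in cKO and -0.08, -0.02 and 0.16 in controls. The list and all 4 genes were highest in cKO replicate 1. Among the cKO libraries the list, Parp9, Dtx3l and Parp14 were lowest in replicate 3 and Parp12 in replicate 2, and the order of the controls differed between the genes and the list.

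**Figure D3:**
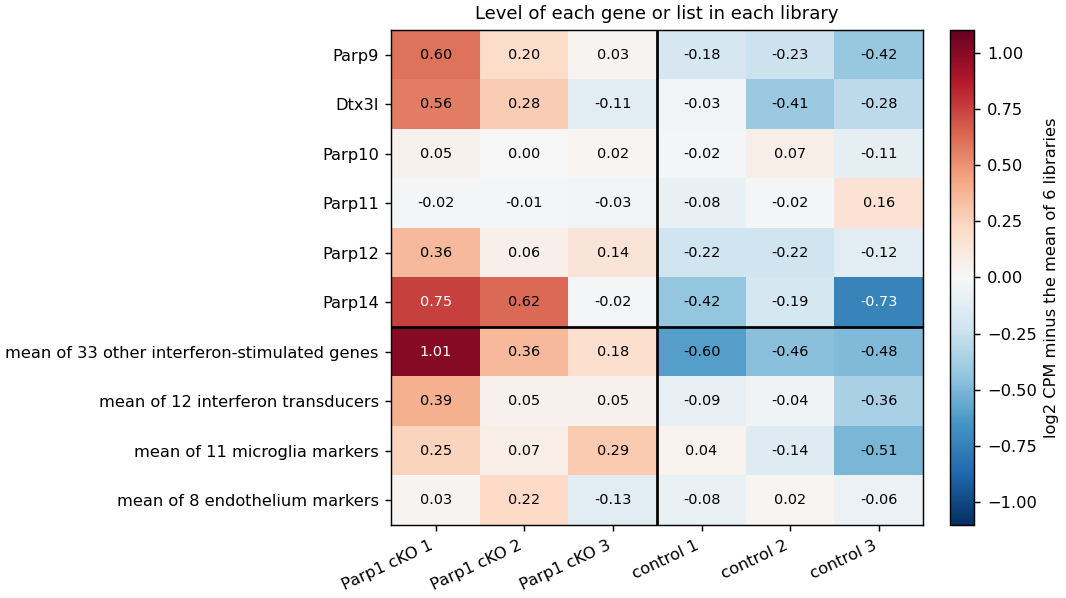
Log2 CPM minus the mean of 6 libraries for each of the 6 genes, and the mean of the same value over 33 other interferon-stimulated genes, 12 interferon transducers, 11 microglia markers and 8 endothelium markers; columns are single libraries, red above and blue below the mean. Parp10 and Parp11 stay near 0 in every column, while Parp9, Dtx3l, Parp12 and Parp14 are reddest in cKO replicate 1.

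Markers of other cell types were read beside these values. The 11 microglia markers all had a positive log2 fold change (median 0.45), and none was called by edgeR. At an unadjusted p under 0.05, 6 were higher, where 3.52% of all tested genes were. The summed level of the 11 was 434 to 514 CPM in cKO and 291 to 424 CPM in controls, without overlap, lowest in control replicate 3. Without that library Parp9 was at 0.50, Dtx3l at 0.47, Parp12 at 0.40 and Parp14 at 0.78 on the log2 scale. The 8 endothelium markers summed to 250 to 316 CPM in cKO and 256 to 278 CPM in controls, with all 8 log2 fold changes positive (median 0.08) and 0 at an unadjusted p under 0.05. The 5 border macrophage markers summed to 29 to 34.9 CPM in cKO and 19.8 to 31.2 CPM in controls, with all 5 log2 fold changes positive and 0 at an unadjusted p under 0.05. The 5 fibroblast markers summed to 149, 146 and 84.0 CPM in cKO replicates 1, 2 and 3, against 83.3, 84.2 and 122 CPM in the controls. All 5 had a positive log2 fold change (median 0.39), 0 were called by edgeR and 2 had an unadjusted p under 0.05. The part of microglia, or of the other cell types, in the levels of the 6 genes was not tested. Markers of T, NK and B cells summed to 5.82 to 8.35 CPM in cKO and 2.1 to 8.37 CPM in controls, with Nkg7 at 0 in every library. Of these 8 markers 2 were tested, and Cd3e, Cd3d, Cd8a, Nkg7, Klrb1c and Ms4a1 had too few reads. Of 6 astrocyte markers 4 had a positive log2 fold change (median 0.05), and of 5 neuron markers 3 (median 0.02). Of 5 monocyte and neutrophil markers 2 were tested, and neither was positive (median -0.46). None of 4 erythroid markers was positive (median -0.81), with summed levels of 7.79 to 111 CPM in cKO and 6.39 to 184 CPM in controls.

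Markers of the oligodendrocyte lineage, which the deletion targeted, had lower levels in cKO. Of 6 precursor markers 3 were called lower by edgeR, where 35 of all 16938 tested genes were. The 6 summed to 255 to 323 CPM in cKO and 414 to 467 CPM in controls. Of 8 markers of differentiating oligodendrocytes 7 were called lower. The 8 summed to 189 to 214 CPM in cKO and 572 to 662 CPM in controls.

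Genes next to the 6 were looked at in the same fit. The nearest protein-coding neighbours on each side numbered 16, of which 14 were tested, and 0 were called by edgeR, DESeq2 or limma-voom. Of these 1 had an unadjusted p under 0.05, Hipk2, a kinase gene beyond Parp12, at -0.24. On chromosome 16 the genes that flank the cluster were Dirc2 (-0.06), Hspbap1 (-0.02), Kpna1 (-0.06) and Wdr5b (0.15), all with confidence intervals that spanned 0. Beside Parp10 lay BC024139 (-0.11), Plec (0.21) and Grina (0.04), and beside Parp11 lay Tigar (-0.14), Ccnd2 (0.03) and Prmt8 (0.03). Beside Parp12 lay Tbxas1 (0.26), Kdm7a (0.01) and Slc37a3 (-0.09). Spatc1 and Cracr2a had too few reads to be tested.

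**Figure D4:**
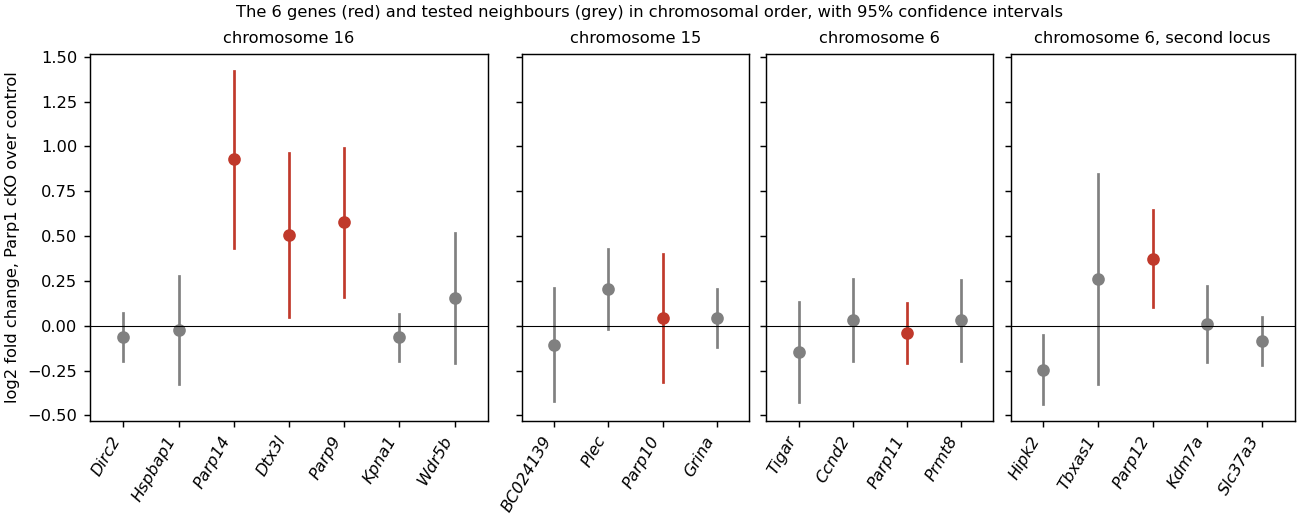
Log2 fold changes, Parp1 cKO over control, with 95% confidence intervals for the 6 genes (red) and their tested protein-coding neighbours (grey), in chromosomal order and not to distance. Parp14, Dtx3l and Parp9 lie between 0.51 and 0.93, while the genes on either side of the cluster lie between -0.06 and 0.15.

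The genes whose library-by-library pattern was most like the mean of the 6 were ranked by root-mean-square distance between log2 CPM profiles, each centred on its own mean over 6 libraries. Among 15235 genes with a mean of at least 1 CPM, Mcam, an adhesion molecule of the vessel wall, was nearest at 0.02. Next came Ctsh, a lysosomal protease (0.04), Slc25a45 (0.05), Fuk (0.06), S100a11 (0.07), Pold1 (0.07), Tubb6 (0.07), Helz2 (0.07), 4930412C18Rik (0.08) and Dclre1c (0.08). A gene with no variation would lie at 0.22. None of these 10 is in the lists above. With both profiles centred within each group, which removes the difference between cKO and control, Mcam lay at 0.02, where a flat gene would lie at 0.11, and Fat3, Mcee and Slc25a35 were nearer, also at 0.02 when rounded. The other 6 of the first 10 on that scale were Zfp707, Efna3, Afap1l2, Tbc1d4, Nubp1 and Ccdc189, at 0.02 to 0.03.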

How the data were processed

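A deposited table of counts and one of FPKM were used, with 1 column for each of 6 libraries. The authors' counts hold whole reads for each Ensembl identifier, and the deposited FPKM values equal those counts divided by 1 length per gene and by the library total (within 1 bp in 100% of 135389 values). The submitters' processing notes name CASAVA, STAR 2.5, HTSeq 0.6.1, DESeq and mm10, without roles. Symbols and coordinates came from GENCODE M21 (mm10), which named 34490 of 35275 identifiers. Unnamed ones took 0.119% to 0.13% of counts.

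Counts were tested with edgeR 4.0.16 (R 4.3.3) by the quasi-likelihood test with TMM scaling, robust dispersion and filterByExpr (minimum count 10, minimum total 15), cKO against control, two-sided, with Benjamini-Hochberg adjustment over 16938 genes and a threshold of 0.05. Log2 fold changes are cKO over control, and confidence intervals are at 95%. The fit was also run on simulated counts with 200 genes changed and the same dispersion for every gene. That run checks the code and does not show how the fit behaves on these libraries. No 2 libraries agreed within sampling noise (chi-square per degree of freedom 4.34 to 23.8). Alternatives were other scalings and filters, DESeq2 1.42.0, limma-voom (limma 3.58.1), limma on log2(FPKM + 1) and log2(FPKM + 0.1), a replicate block, and leaving out each library.

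The 6 genes, the lists, the tests and the naming rule were chosen with earlier results of these data known. The rule named the 6 genes, Parp1, the 3 genes of each pathway list with the smallest p and every called one, the neighbours, and the 10 nearest profiles under each centring. Genes named outside it are marked or serve as library checks. Some genes are not reported here.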

Additional observations from a re-analysis of the deposited data

How the results depend on the processing

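Over 17 alternatives, the 6 genes gave 102 log2 fold changes, of which 98 kept their direction and their side of the threshold. Parp14 alone passed under 2 of them, so the number of the 6 genes called was 1 with no filter and 1 by DESeq2. Without each library in turn, Parp10 ranged from -0.0094 to 0.091 and Parp11 from -0.088 to 0.026, and both changed sign without control replicate 3. Adprh (-0.11 to 0.022, positive without cKO replicate 2), Dtx2 (-0.00084 to 0.18, negative without cKO replicate 1) and Ifnar1 (-0.012 to 0.086, negative without control replicate 1) also crossed 0. Parp14 ran from 0.78 to 1.13, Parp9 from 0.40 to 0.69, Dtx3l from 0.34 to 0.67 and Parp12 from 0.29 to 0.43. Over all genes, 10 were called higher and 35 lower by edgeR. The higher count was 50 with no filter, 49 by DESeq2, 4 by limma-voom, 4 on log2(FPKM + 1), 4 on log2(FPKM + 0.1) with or without a filter, and 4 to 19 without each library. The lower count was 61 with no filter, 59 by DESeq2, 20 on log2(FPKM + 1), 20 on log2(FPKM + 0.1) and 19 on that scale without a filter. Pathway list genes called higher numbered 0 by edgeR, 13 with no filter, 15 by DESeq2 and 0 to 4 without each library, with 4 of them without cKO replicate 3 and 1 without control replicate 3. With the replicate number as a block, 5 genes were called higher, 27 lower and 0 of the 6. Same-numbered libraries did not deviate together (correlations of 0.00, -0.05 and 0.01). With 3 libraries per group, this cannot tell whether same-numbered ones shared a litter or batch. The cause of the differences between the alternatives was not tested. The median of the other interferon-stimulated genes was 0.40 on log2(FPKM + 1), a scale that understates the change of low genes. Counts of 63 to 188 for Parp9, Dtx3l, Parp10 and Parp14 limit how small a difference can be seen.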

Other observations

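Likeness was also taken for each of the 6 genes alone, by the same distance over 6 libraries. The gene nearest to Parp9 was Gm15567 (distance 0.06), followed by Bgn, the matrix proteoglycan biglycan (0.07), and Helz2, a helicase that interferon induces (0.07), where a gene with no variation would lie at 0.33. Nearest to Dtx3l were Gxylt2 (0.05), Vamp5 (0.06) and Gm15567 (0.07), where a flat gene would lie at 0.33. The nearest 10 genes to Dtx3l also held Bgn and the matrix genes Emilin1 and Mmp2 (each at 0.09). Nearest to Parp12 were Dclre1c, the nuclease Artemis of DNA end joining (0.06), Flnc (0.07) and Znrd1as (0.08), with a flat gene at 0.21. Nearest to Parp14 were Uba7, which encodes the enzyme that activates ISG15 (0.07), Spp1, the secreted phosphoprotein osteopontin (0.08), and Ifitm3, an interferon-induced membrane protein (0.11), with a flat gene at 0.53. The other 7 of the 10 nearest to Parp14, at 0.12 to 0.19, held the mitotic genes Kif18b, Kif11, Kif23, Ube2c and Ccnb1, and 4933423P22Rik and 2700046A07Rik. For Parp10 and Parp11, which varied little, the nearest were Zfp236 and Plekhb2 (each at 0.01), with flat genes at 0.06 and 0.07. None of the 3 genes nearest to Parp9, Dtx3l, Parp12 or Parp14 was called by edgeR (adjusted p of 0.185 to 0.86). With both profiles centred within each group, the 3 nearest were Tubb6, Hapln1 and Nelfe for Parp9 and Zfp595, Gxylt2 and Gm266 for Dtx3l. For Parp12 they were Ormdl1, Gm4202 and Nudcd2, and for Parp14 Gm27010, Rgs5 and Chsy3. Bgn and Helz2 then left the 10 nearest to Parp9, Bgn, Emilin1 and Mmp2 those to Dtx3l, and Ifitm3 those to Parp14. Uba7, Spp1 and Kif18b stayed for Parp14, Gxylt2 and Vamp5 for Dtx3l, and Tubb6 and Lyl1 for Parp9.

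The interferon transducers held 11 genes with a promoter window, of which 2 held the ISRE letters and 3 the GAS letters. Of 10 other PARPs with a window, 1 held the ISRE letters and 1 the GAS letters. Over all 27025 genes with a window, 3.99% held the ISRE letters and 9.55% the GAS letters in at least 1 of their windows.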
